A study of Drosophila melanogaster with 23 samples.

Results

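Nascent RNA was compared between Drosophila Kc167 cells that received an siRNA against the AGO2 5′UTR together with a catalytic mutant of AGO2 (si5UTR+V966M) and cells that received the siRNA alone (si5UTR). The libraries were taken by their labels, as the si5UTR+V966M replicates 2 and 3 and the si5UTR replicates 2 and 3 of experiment 2, and they are 4 of the 23 libraries of the series. Kc167 is a cell line of female embryonic origin with haemocyte features. The methods describe each construct as an AGO2 coding sequence without its UTRs, fused at the N terminus to Flag and HA tags in the pAFHW plasmid and co-transfected with the siRNA, so that the siRNA does not match the construct. Experiment 2 also held 2 libraries with the wildtype construct (si5UTR+AGO2, replicates 1 and 2) and 2 mock libraries (replicates 7 and 8), which were transfected without RNA. No library that received the siRNA and a plasmid without AGO2 was analysed here, so V966M and the presence of a plasmid cannot be told apart in the comparison with si5UTR, whereas si5UTR+V966M and si5UTR+AGO2 both carry siRNA and plasmid. The 2 libraries of a group are not stated to come from separate cultures, and p-values measure the spread between such libraries.

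Argonaute proteins hold a small RNA and use it to find complementary transcripts. AGO2 is the Argonaute of the siRNA pathway in flies, where Dicer-2 makes the siRNAs and the PIWI domain of AGO2 cuts the paired RNA, an activity known as slicing. AGO2 has also been found on chromatin at active promoters, and a slicing mutant was used in the study to ask which effects on transcription need the catalytic activity. The reference coding sequence around the mutated residue is shown because the constructs differ there. The window lies in AGO2-RB, a transcript of 1214 codons, on the plus strand of 3L (dm6, 3L:15559817-15559843), within 1 exon, and the capitals mark the valine codon that V966M turns into methionine. The codon begins at coding base 2896 and directly follows the aspartate at residue 965.
AGO2-RB: attggagccgatGTGacccatccctct

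RNA was labelled with 5-ethynyl uridine (EU; 0.2 mM for 1 h), coupled to biotin azide and captured, and strand-specific reads were counted over whole gene bodies, introns included. The 4 libraries held between 10426605 and 15641835 counted reads and detected between 8290 and 9106 genes. Levels are given in CPM, counts scaled to the size of each library with TMM factors, and differences as log2 fold changes with their standard error (SE) from the edgeR quasi-likelihood test over the 8 libraries of experiment 2, in which 8727 genes were tested. A gene was called at a Benjamini-Hochberg adjusted p under 0.1. The V966M libraries were the least alike of the 4 pairs, with 4.34% of the 6661 genes at 5 CPM or more lying over 2-fold apart, against 2.57% in si5UTR. Of the haemocyte markers, srp (1738 to 1961 CPM) and Hml (1665 to 1896 CPM) were high in all 4 libraries, whereas NimC1 had 0 reads in them and eater 3.56 to 11.4 CPM. Of the 17 markers of other cell types in the table, repo, Lsp2, Fbp1, atilla, PPO1 and PPO2 had 0 reads in experiment 2, while Mef2 (365 to 407 CPM), elav (61.0 to 95.5 CPM) and brp were present in all 4 libraries. The summed level of these markers was 583.8 to 624.3 CPM in si5UTR and 497 to 543.1 CPM with V966M. It includes brp, which was called lower with V966M in these libraries, so the sum does not show a fall of the other markers. In bulk cells, fewer cells of a type and less RNA per cell cannot be told apart.

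With V966M, 9 genes were higher and 14 were lower than with the siRNA alone. These are 0.103% and 0.16% of the genes tested. The higher genes were AGO2 itself, a pair of rRNA pseudogenes, a gene of the mitochondrial genome, Sumo and 4 others. Among the lower genes were the cell surface receptors DIP-lambda, DIP-alpha and kirre, the actin and membrane skeleton genes mbc, kst and Swip-1, the synaptic scaffold brp, the exocyst subunit Sec5 and the translation factor eIF4B. Levels in the V966M libraries did not overlap those in the si5UTR libraries for any of the 23 genes. This follows largely from choosing the genes by a test on these libraries, and the share over all genes was not counted. The counts changed with the method, and DESeq2 called 26 genes higher and 87 lower, including 6 of the 9 and 9 of the 14. DESeq2 gave an adjusted p for only 16 of the 23 genes and called 15 of these, all but lncRNA:CR40469.

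**Figure D1:**
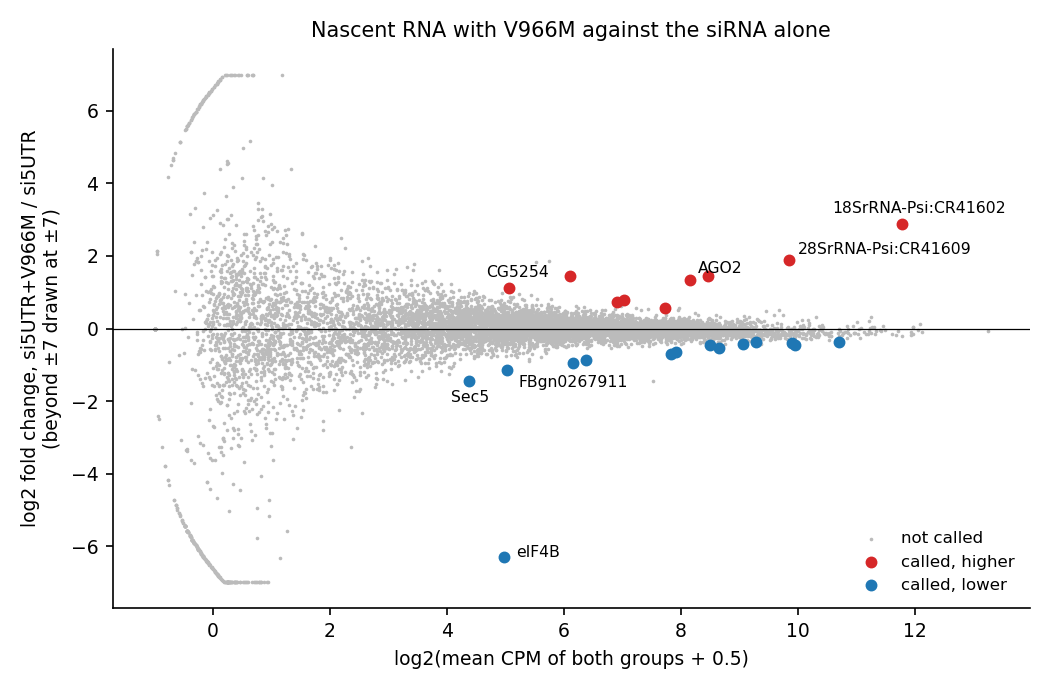
Each point is 1 of the 8727 genes, with the mean level of the si5UTR and si5UTR+V966M libraries on the x axis (log2 CPM) and the log2 fold change of si5UTR+V966M against si5UTR on the y axis. Red and blue points mark the 9 genes called higher and the 14 called lower, and the called falls at high level lie close to 0 while eIF4B lies far below.

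The level of AGO2 (FBgn0087035; dm6, 3L:15554113-15561042) was examined first. It was 159 and 161 CPM in the si5UTR libraries and 379 and 432 CPM in the V966M libraries. Mock cells had 282 and 321 CPM, and cells with the wildtype construct had 480.2 and 427 CPM. The si5UTR libraries were thus below mock and the V966M libraries above it, without overlap. AGO2 rose by 1.34 on the log2 scale over si5UTR (SE 0.113, edgeR adjusted p 2.45e-07). Reads of the construct fall on the AGO2 gene, so this rise shows that the construct was present and not what the endogenous gene did. Between the constructs the AGO2 log2 difference was -0.16, with a 95% interval from -0.39 to 0.07 (edgeR adjusted p 0.693).

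Both rRNA pseudogenes lie on X and resemble the ribosomal DNA copies, so their reads cannot be placed with certainty. The 18S pseudogene 18SrRNA-Psi:CR41602 had 632 and 1052 CPM in si5UTR, 7797 and 4627 CPM with V966M, 1766 and 6057 CPM with wildtype AGO2, and 3008 and 2536 CPM in mock. It rose by 2.88 with V966M (SE 0.328, edgeR adjusted p 3.67e-05), and the wildtype libraries lay on both sides of the lower V966M library. The 28S pseudogene 28SrRNA-Psi:CR41609 had 326 and 456 CPM in si5UTR and 1537 and 1370 CPM with V966M, a rise of 1.89 (SE 0.26, edgeR adjusted p 0.000599). In contrast to the 18S pseudogene it stayed at 412 and 445 CPM with wildtype AGO2, and the V966M libraries exceeded these without overlap, whereas the mock libraries lay at 1352 and 458 CPM. Of the 12 tested rRNA genes and pseudogenes, 6 were higher and 6 lower with V966M. The summed level of the 117 listed was 9960 to 15070 CPM with V966M and 5573 to 7863 CPM in si5UTR. This sum includes the 2 called pseudogenes, which were chosen for their rise in these libraries, so it does not show a rise of the other members.

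The remaining rises were found in 6 genes. mt:ATPase6, a mitochondrially encoded subunit of ATP synthase, had 36.0 and 36.9 CPM in si5UTR and 146 and 53.4 CPM with V966M (log2 fold change 1.45, SE 0.335, edgeR adjusted p 0.0943). The V966M replicate 2 set this rise, which was no longer called without that library. It was the sole called gene of 16 tested in the mitochondrial genome, whose median log2 fold change was 0.17. Of the 16, 6 were higher and 0 lower at an unadjusted p under 0.05 (edgeR), beside 319 and 425 of all 8727 genes. The X-linked lncRNA:CR40469 (69.2 and 306 CPM in si5UTR, 616 and 411 CPM with V966M) varied more between the si5UTR libraries than V966M replicate 3 differed from si5UTR replicate 3. Sumo encodes the small modifier that is attached to other proteins. It had 171 and 172 CPM in si5UTR and 276 and 231 CPM with V966M, a rise of 0.56 (SE 0.127, edgeR adjusted p 0.0933), and 218 and 226 CPM with wildtype AGO2. CG5787 was at 106 and 83.3 CPM in si5UTR and at 126 and 202 CPM with V966M. The rise of CG5254 was larger, from 18.8 and 22.5 CPM to 48.8 and 41.8 CPM (log2 fold change 1.13, SE 0.254, edgeR adjusted p 0.0933). It was also the only rise called against mock (18.1 and 25.5 CPM), where 0.286% of all genes were called higher. The gene FBgn0040813, which the annotation used here does not name, had 105 and 74.2 CPM in si5UTR and 149 and 151 CPM with V966M.

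Of the 14 falls, 6 were in genes of the cell surface or the cytoskeleton, a grouping made after their values were seen. DIP-lambda and DIP-alpha encode immunoglobulin-domain receptors for Dpr proteins. DIP-lambda had 329 and 261 CPM in si5UTR and 183 and 190.3 CPM with V966M (log2 fold change -0.66, SE 0.129, edgeR adjusted p 0.0411). DIP-alpha changed less, from 419.9 and 412 CPM to 320.4 and 288 CPM (log2 fold change -0.45, SE 0.103, edgeR adjusted p 0.0933). kirre encodes an adhesion receptor of the myoblast membrane and mbc an activator of Rac needed for myoblast fusion. kirre fell from 468 and 478 CPM to 376 and 276 CPM (log2 fold change -0.53), and mbc from 586 and 628 CPM to 452 and 458 CPM (log2 fold change -0.41). kst, the heavy beta-spectrin of the apical cytoskeleton, had 1083 and 1185 CPM in si5UTR and 886 and 781 CPM with V966M (log2 fold change -0.44, SE 0.089, edgeR adjusted p 0.0496). Swip-1, an actin-binding protein, had 1018 and 1153 CPM in si5UTR and 874 and 780.2 CPM with V966M (log2 fold change -0.39). Together these 6 genes lost between 23.8% and 36.6% of their level.

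brp encodes Bruchpilot, a scaffold of synaptic active zones, and stood on the list of neuronal markers. It was nevertheless at 102 and 112 CPM in si5UTR and fell to 56.8 and 60.4 CPM with V966M (log2 fold change -0.87, SE 0.169, edgeR adjusted p 0.0411). Mock cells had 72.0 and 72.6 CPM of brp, between si5UTR and V966M, and cells with wildtype AGO2 had 87.5 and 68.3 CPM. Another neuronal marker, elav, had 95.5 and 76.7 CPM in si5UTR and 61.0 and 79.3 CPM with V966M and was not called. CG42340 (282 and 281 CPM against 194 and 155 CPM) had the smallest spread in si5UTR (log2 fold change -0.69, SE 0.127, edgeR adjusted p 0.0284). mbl encodes the splicing regulator Muscleblind and had 709 and 701 CPM in si5UTR, 527 and 557 CPM with V966M, and 535 and 522 CPM in mock. MESR3 fell from 1808 and 1978 CPM to 1564 and 1354 CPM (log2 fold change -0.38). Hsp67Ba, a small heat shock gene of the 67B locus, had 89.5 and 97.1 CPM in si5UTR and 55.1 and 41.8 CPM with V966M (log2 fold change -0.95, SE 0.185, edgeR adjusted p 0.0411).

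A pair of falls stood well apart from every other library. Sec5 encodes a subunit of the exocyst, which tethers secretory vesicles to the plasma membrane. It was at 30.4 and 28.5 CPM in si5UTR, 26.9 and 19.1 CPM in mock, 21.1 and 32.4 CPM with wildtype AGO2 and 9.996 and 11.7 CPM with V966M. The log2 fold change of Sec5 was -1.44 against si5UTR (SE 0.296, edgeR adjusted p 0.0539) and -1.30 against wildtype AGO2, where the 95% interval ran from -1.91 to -0.69 but the adjusted p was 0.108. FBgn0267911, which has no name in the annotation used here, showed the same arrangement with 39.8 and 48.6 CPM in si5UTR, 36.6 and 34.0 CPM in mock, 38.6 and 41.6 CPM with wildtype AGO2 and 17.7 and 22.1 CPM with V966M. Its log2 difference from wildtype AGO2 was -1.01 (95% interval -1.50 to -0.52, edgeR adjusted p 0.117). eIF4B, a translation initiation factor that assists the eIF4A helicase, had the most extreme fold change at -6.29 (SE 0.883, edgeR adjusted p 0.000669). Its level was 9.66 and 112 CPM in si5UTR, 84.5 and 34.2 CPM in mock, 0.408 and 0.501 CPM with wildtype AGO2, and 1.61 and 0 CPM with V966M, which is 23 reads in replicate 2 and 0 in replicate 3, where a count of 0 allows up to 0.188 CPM. The fitted log2 fold change of eIF4B was -6.28 without the filter on low counts and ran from -12.5 to -3.62 over all alternative fits. Its size is therefore poorly fixed. In addition, lncRNA:CR46482 covers the whole gene on the same strand in the annotation used here.

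**Figure D2:**
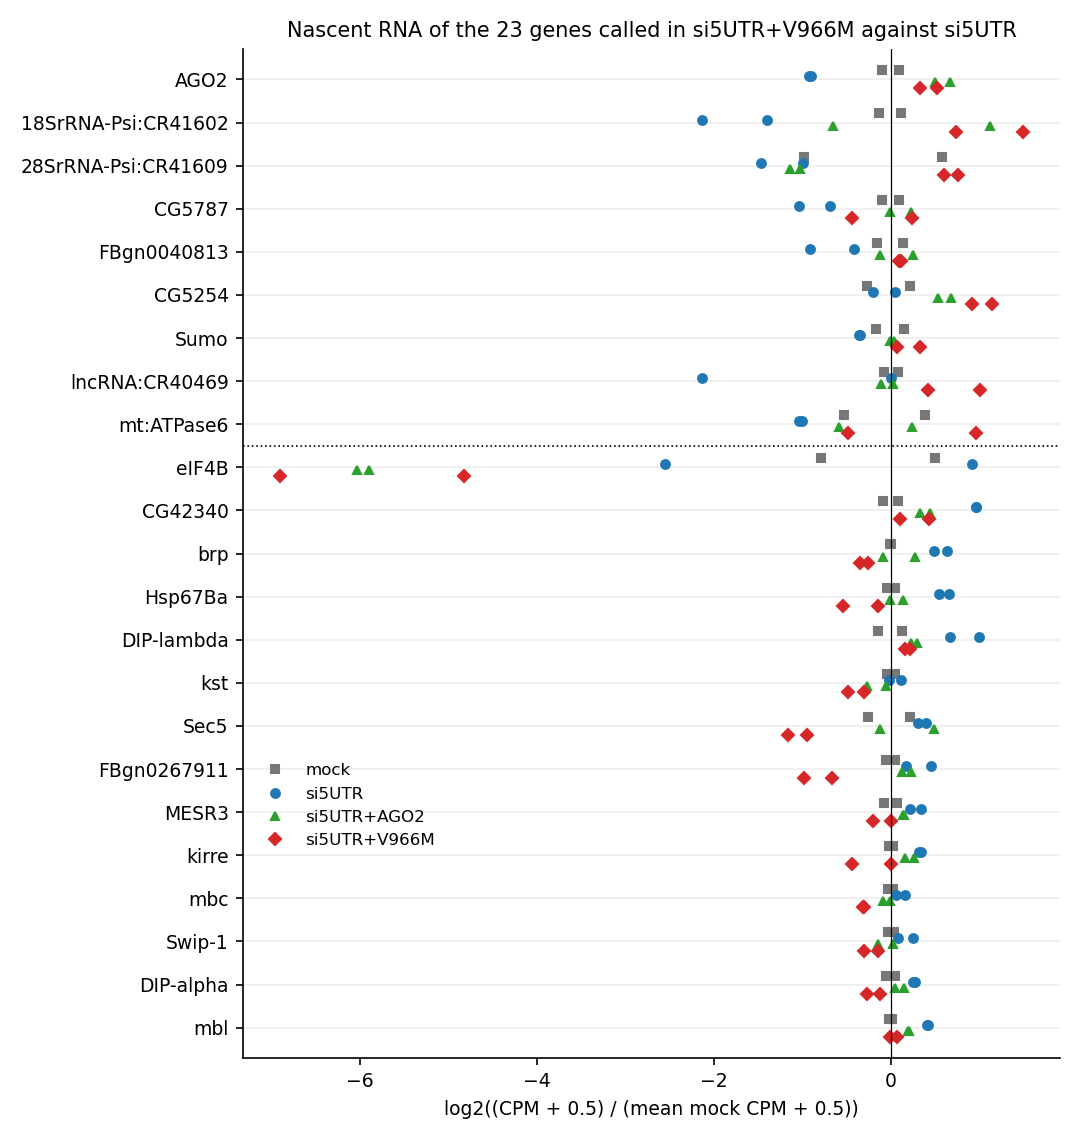
Each row is 1 of the 23 called genes and each marker 1 of the 8 libraries, placed by its log2 CPM relative to the mean of the mock libraries (0.5 CPM added); genes above the dotted line were called higher and genes below it lower. The V966M markers (red) never overlap the si5UTR markers (blue), which follows largely from how the genes were chosen. For Sec5 and FBgn0267911 the V966M markers lie well to the left of every other library.

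The threshold lay among genes of like size. Just inside were lncRNA:CR40469, mt:ATPase6 and mbl at an edgeR adjusted p of 0.0943. Just outside among the rises were p23 (a co-chaperone of Hsp90), HIP-R (a partner of Hsc70) and chic (profilin), each at an edgeR adjusted p of 0.106. The level of chic was 669 and 664 CPM in si5UTR and 907 and 828 CPM with V966M, and p23 had 219 and 187 CPM against 303 and 293 CPM. HIP-R was carried by a single library, with 120 CPM in V966M replicate 2 and 22.6 CPM in replicate 3. Among the falls, lncRNA:CR44999, mtgo and Mob2 (a co-activator of NDR kinases) were just outside, with edgeR adjusted p values of 0.11, 0.119 and 0.13.

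The calls rested on few libraries and on the spread estimated over all 8. When only the 2 groups compared were fitted, 4 of the 23 calls were kept, namely AGO2, both rRNA pseudogenes and eIF4B, and the other calls were lost at edgeR adjusted p values from 0.128 to 0.4496 with like fold changes. Leaving out 1 of the 4 compared libraries leaves 1 library in its group, and most such fits called more genes than the fit over all 8. A call kept in them is therefore no measure of stability. The log2 fold change of lncRNA:CR40469 was 0.75 without si5UTR replicate 2 and 2.89 without si5UTR replicate 3. That of AGO2 ranged from 1.24 to 1.44. Without si5UTR replicate 3, 11 calls were lost, among them brp, kst, Swip-1 and mbc. Without V966M replicate 2, 7 were lost, including Sec5, FBgn0267911, CG5254 and mt:ATPase6, and without si5UTR replicate 2 or V966M replicate 3, 5 each. The direction of a called gene could hardly change in these fits, since its levels did not overlap between the groups. The number of genes called in them went from 16 to 46 for rises and from 8 to 97 for falls, with the highest counts without V966M replicate 3 and the lowest without V966M replicate 2 (rises) and si5UTR replicate 3 (falls).

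Set beside the mock and wildtype libraries, the called genes fell into different arrangements. These comparisons share libraries with the one that chose the genes, so the values are given side by side without a count of shared directions. CG42340 was raised by 0.97 with si5UTR against mock (edgeR adjusted p 0.000113) and came to -0.69 with V966M and -0.58 with wildtype AGO2 against si5UTR, where it had 195 and 182 CPM. DIP-lambda was raised by 0.84 with si5UTR (edgeR adjusted p 0.000926) and came to -0.66 with V966M and -0.58 with wildtype AGO2 (193 and 201 CPM). Both lay close to the wildtype level with V966M and were called in each of these comparisons, in which 0.882% of all genes were called higher with si5UTR than in mock and 0.527% lower with wildtype AGO2 than with si5UTR. kst showed another arrangement, with 1062 and 1128 CPM in mock, a log2 fold change of 0.05 with si5UTR and -0.39 with V966M against mock (edgeR adjusted p 0.0491), and it was called there, as 0.344% of all genes were called lower with V966M than in mock. Among the rises, CG5787 came to -0.86 with si5UTR against mock, and 0.344% of all genes were called lower in that comparison. With wildtype AGO2 against si5UTR it reached 0.97 (169 and 201 CPM; edgeR adjusted p 0.00674), where 0.103% of all genes were called higher.

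Tested directly, few of these genes were called between the constructs. Of the 23, 28SrRNA-Psi:CR41609 was called higher with V966M than with wildtype AGO2. For the 14 falls edgeR called none between the constructs, although 9 had an unadjusted p under 0.05 and DESeq2 called 4. Over all 8727 genes tested, 401 were lower with V966M at an unadjusted p under 0.05 (edgeR), and DESeq2 called 64 lower. The 14 falls were chosen for low levels in the same V966M libraries, so a negative difference follows in part from the choice, and the intervals are given as a description. The 95% intervals of the log2 difference lay below 0 for brp (-0.76 to -0.06), kst (-0.42 to -0.05) and kirre (-0.66 to -0.17). They also lay below 0 for Hsp67Ba, MESR3, mbc, DIP-alpha, Sec5 and FBgn0267911. Intervals spanned 0 for CG42340 (-0.38 to 0.15), DIP-lambda (-0.35 to 0.19), eIF4B, Swip-1 and mbl.

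Over all genes, 7 were higher and 7 lower with V966M than with wildtype AGO2, each 0.0802% of the genes tested. The higher genes were 28SrRNA-Psi:CR41609, Gadd45, Socs36E, Tep4, cv-2, ImpL2 and asRNA:CR46089. Gadd45, a stress-induced gene, had 123 and 136 CPM in si5UTR, 145 and 112 CPM with V966M, 61.3 and 63.4 CPM with wildtype AGO2 and 63.5 and 80.5 CPM in mock. The log2 difference between the constructs was 1.04 for Gadd45 (SE 0.164, edgeR adjusted p 0.00378), whereas that between V966M and si5UTR was -0.02. Socs36E, a feedback inhibitor of JAK-STAT signalling, had 792 and 868 CPM in si5UTR, 726 and 705 CPM with V966M, 533 and 481 CPM with wildtype AGO2 and 480.2 and 478 CPM in mock, a log2 difference of 0.50 between the constructs (edgeR adjusted p 0.0248) and of -0.22 between V966M and si5UTR. Levels with V966M also lay between those of si5UTR and wildtype on average for Tep4, a thioester-containing protein (308 and 368 CPM in si5UTR, 333 and 265 CPM with V966M, 206 and 187 CPM with wildtype), and for cv-2, a secreted regulator of BMP ligands (651 and 815, 648 and 490.0, and 412 and 319 CPM), with log2 differences from si5UTR of -0.18 and -0.37. ImpL2, a secreted antagonist of insulin signalling, was at 413 and 349 CPM with V966M and at 249 and 267 CPM with wildtype AGO2, and asRNA:CR46089 at 165 and 103 CPM and at 67.6 and 71.2 CPM. The JAK-STAT ligand gene upd3 (234 and 147 CPM with V966M, 97.6 and 129 CPM with wildtype) had a log2 difference of 0.75 and was not called (edgeR adjusted p 0.113).

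The genes lower with V966M than with wildtype AGO2 included haemocyte matrix genes. Pxn encodes Peroxidasin, which crosslinks collagen. It had 915 and 879 CPM in si5UTR, 722 and 849 CPM with V966M, 1187 and 1150.5 CPM with wildtype AGO2 and 1034 and 1107 CPM in mock, a log2 difference between the constructs of -0.57 (SE 0.0858, edgeR adjusted p 0.00245). Hml, the clotting protein Hemolectin, had 1794 and 1665 CPM with V966M and 2381 and 2138 CPM with wildtype (log2 difference -0.39), and Ppn, the matrix protein Papilin, 144 and 139 CPM and 219 and 211 CPM (log2 difference -0.61). LanA, the laminin alpha chain, was at 3728 and 3816 CPM against 5122 and 4453 CPM (log2 difference -0.34). Of the 10 tested haemocyte markers, Hml, Pxn and Ppn were called here. The summed level of the list was 7830 to 8077 CPM with V966M and 9442 to 9927 CPM with wildtype AGO2. That sum includes these called genes, which were chosen on the same libraries. It does not show a fall of the other markers. The other lower genes were eIF4EHP, a cap-binding translational repressor, 28SrRNA-Psi:CR40741, and CG41520, which had 903 CPM in wildtype replicate 2 and 232 CPM in replicate 1. In LaminB KD, AGO2 KD and Dcr-2 KD, which share no library with experiment 2, the 6 higher genes other than the rRNA pseudogene were called higher in all 3 (16.7%, 7.92% and 1.38% of all genes). Of the 7 lower genes, Pxn, Hml and Ppn were called lower in AGO2 KD (2.32% of all genes), whereas CG41520 and eIF4EHP were called higher there and in LaminB KD. Without V966M replicate 2, the calls of asRNA:CR46089, cv-2, eIF4EHP, ImpL2 and Tep4 were lost. Without wildtype replicate 2, CG41520 and eIF4EHP were lost, and with the correction for gene length and GC content Hml, LanA, Ppn and eIF4EHP were, so that of the matrix genes Pxn kept its call.

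**Figure D3:**
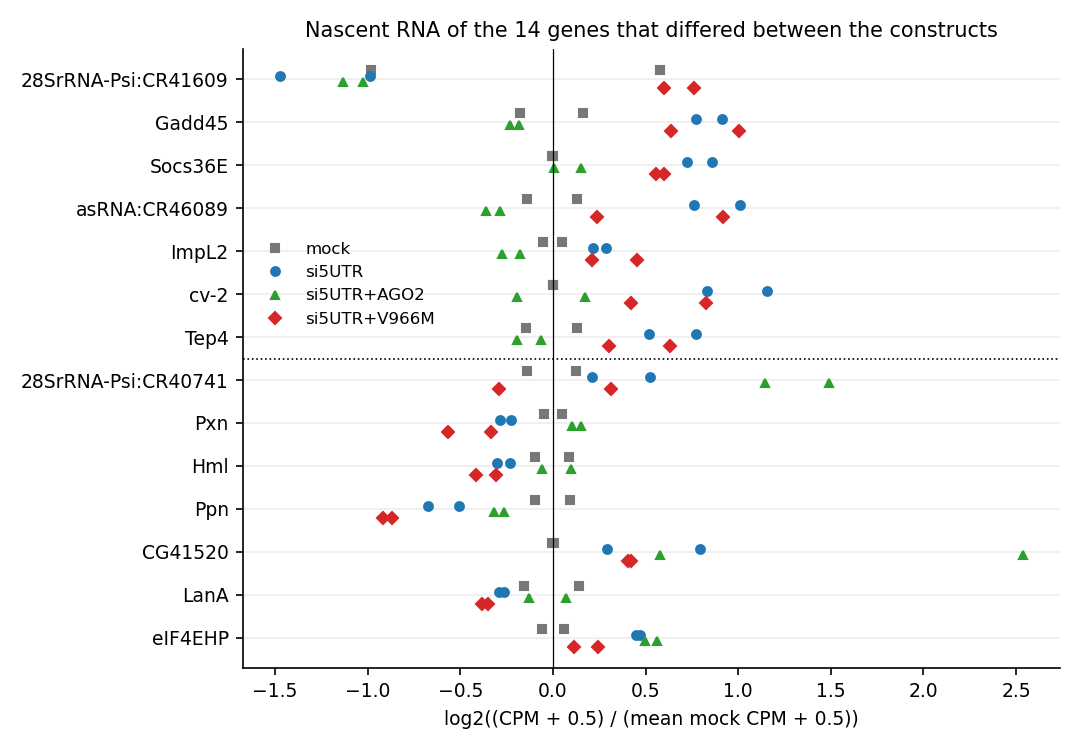
Each row is 1 of the 14 genes called between the constructs and each marker 1 of the 8 libraries, placed by its log2 CPM relative to the mean of the mock libraries (0.5 CPM added); genes above the dotted line were higher with V966M. For Gadd45, Socs36E, cv-2 and Tep4 the V966M markers (red) lie on average nearer to those of si5UTR (blue) than to those of wildtype AGO2 (green).

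Experiments 1 and 3, which share no library with experiment 2, give an outside readout of the called genes. Of the 14 falls, 13 were tested in AGO2 KD (an siRNA against an AGO2 exon) and 9 were called higher there, where 7.92% of all genes were. The 9 were CG42340 (log2 fold change 0.82), FBgn0267911 (0.57), mbl (0.43), Hsp67Ba (0.38), brp (0.35), Swip-1 (0.35), MESR3 (0.31), kirre (0.28) and kst (0.22). In LaminB KD 8 of the 13 were called higher (16.7% of all genes), with brp at 1.59, and kirre lower (12.5% of all genes). In Dcr-2 KD, where 1.38% of all genes were called higher and 0.634% lower, kirre and eIF4B were called lower. Of the 9 rises, lncRNA:CR40469 was called higher in AGO2 KD, and AGO2 and CG5787 were called lower (2.32% of all genes). The share called higher in AGO2 KD also depended on gene length, being 23.2% in the longest of 5 length classes of equal size, where 7 of the 10 falls tested there were called. In LaminB KD that share was 44.7%, and 7 of the 10 were called.

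The reverse reading asked how the genes that AGO2 KD changed in experiment 1 behaved with V966M. Of the 645 genes called higher in AGO2 KD, 643 were tested in experiment 2. Their median log2 fold change was 0.24 with si5UTR against mock and 0.13 with V966M against mock. Against si5UTR it was -0.13 with V966M and -0.17 with wildtype AGO2, while the median of all genes was near 0, and between V966M and wildtype AGO2 it was 0.04. The share of the 643 that was lower than in si5UTR was 74.3% with V966M and 75.7% with wildtype AGO2, beside 51.5% and 50.5% of all genes. By call, 9 of them were lower with V966M (1.4%) and 40 with wildtype AGO2 (6.22%). Among the 105 of these genes at or below the median length of 2745 bp, the median was -0.03 with V966M and -0.33 with wildtype AGO2, and among the 518 longer genes it was -0.14 and -0.16. Over all tested genes in these length classes it was 0.07 and 0.02 for the shorter and -0.06 and -0.02 for the longer. Over the 4 pairings of 1 V966M with 1 si5UTR library the median of the 643 ranged from -0.17 to -0.09. It was 0.00 once levels were corrected for gene length and GC content. The 189 genes called lower in AGO2 KD had a median of -0.01 with V966M and 0.09 with wildtype AGO2 against si5UTR.

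The genes of AGO2 KD with the largest changes under V966M were mostly of low level. CG9864, which was higher in AGO2 KD by 1.00 on the log2 scale, had 25.3 and 19.2 CPM in si5UTR, 10.8 and 8.09 CPM with V966M and 5.91 and 8.26 CPM with wildtype AGO2, with a log2 difference of V966M from si5UTR of -1.24 (edgeR adjusted p 0.314). CG31897 (10.05 and 3.01 CPM against 1.12 and 1.63 CPM) and lncRNA:CR43847 (10.9 and 3.44 CPM against 2.45 and 2.88 CPM) differed widely between the si5UTR libraries. The small heat shock gene Hsp27 was higher with V966M, at 12.7 and 15.7 CPM against 6.18 and 5.15 CPM, and was not called (edgeR adjusted p 0.371).

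**Figure D4:**
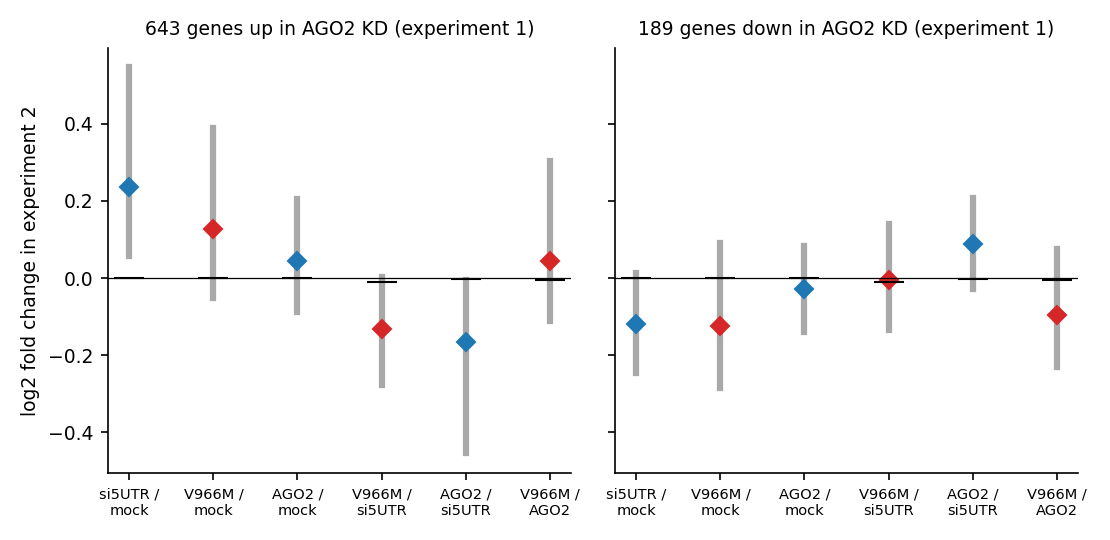
Diamonds give the median log2 fold change in experiment 2, for 6 contrasts on the x axis, of the 643 genes called higher (left) and the 189 called lower (right) in AGO2 KD of experiment 1; grey bars span the quartiles and short black lines mark the median of all genes. For the genes higher in AGO2 KD the median was 0.24 for si5UTR against mock, and -0.13 for V966M and -0.17 for wildtype AGO2 against si5UTR.

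Gene length separated the falls from the rises. The 13 falls with a known length had a median gene body of 37800 bp and the 8 rises one of 1435 bp, while all tested genes had 2745 bp. Of the 13, 11 were in the longest of the 5 length classes, from 8588 bp upwards, and up to kirre with 394149 bp and DIP-lambda with 379081 bp. Sec5 (3066 bp) and Hsp67Ba (1733 bp) were the exceptions. Genes that were not called also followed length, and the median log2 fold change of V966M against si5UTR went from 0.15 in the shortest class through 0.06, 0.00 and -0.04 to -0.11 in the longest. The V966M libraries stood apart from the other groups here. Relative to mock, the longest class minus the shortest was -0.14 and -0.10 on the log2 scale in the V966M libraries, 0.07 and 0.12 in the si5UTR libraries, and 0.05 and 0.04 in the wildtype libraries. Corrected for length and GC content, 10 of 21 called genes kept their call, with Sec5, Hsp67Ba, DIP-lambda and eIF4B among the falls, while 9 falls and the rises of Sumo and lncRNA:CR40469 lost it and kept their direction. The log2 fold change of kirre was then -0.50 (edgeR adjusted p 0.118), that of CG42340 -0.52 and that of brp -0.67. Smaller values were left for Swip-1 (-0.30), DIP-alpha (-0.28), kst (-0.27), mbl (-0.25), mbc (-0.24) and MESR3 (-0.21). Whether length had a part in these falls was not tested.

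**Figure D5:**
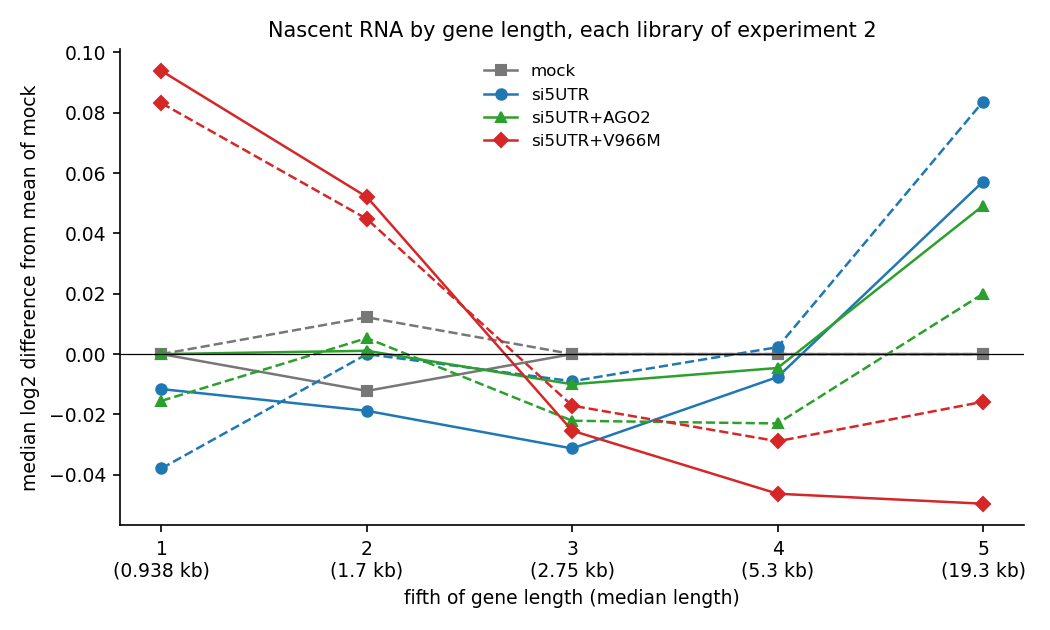
Lines give, for each of the 8 libraries of experiment 2, the median log2 difference from the mean of the mock libraries (y axis) in 5 classes of gene length from the shortest to the longest (x axis, with the median length of each class); dashed lines are the replicate with the higher number. Among the 8 libraries, the V966M lines are highest in the shortest class and lowest in the longest, where the si5UTR lines are highest, at 0.06 and 0.08. The line of V966M replicate 3 has its own lowest point in the fourth class (-0.03).

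The other genes of the small RNA pathways changed little. Of 11 siRNA factors tested, AGO2 was the sole call, and the median log2 fold change of the list was 0.12 beside -0.01 over all genes. Dcr-2, which dices double-stranded RNA, had 180.3 and 218 CPM in si5UTR and 165 and 179 CPM with V966M. Its partners r2d2 (73.2 and 56.1 CPM against 104 and 63.2 CPM) and loqs (53.9 and 39.4 CPM against 59.6 and 47.5 CPM) had log2 fold changes of 0.38 and 0.20. For the siRNA methylase Hen1, blanks, Tudor-SN, Fmr1, vig, vig2 and the helicase Rm62 the log2 fold change ran from -0.05 (Tudor-SN) to 0.18 (vig2). Fly endo-siRNAs come in part from long hairpin transcripts, of which hpRNA:CR32207 had 10.3 and 13.1 CPM in si5UTR and 3.50 and 4.64 CPM with V966M (log2 fold change -1.52, SE 0.555, edgeR adjusted p 0.437) and 6.63 and 2.25 CPM with wildtype AGO2. The more abundant hpRNA:CR33940 had 17.9 and 22.8 CPM in si5UTR and 17.3 and 19.3 CPM with V966M (log2 fold change -0.16). hpRNA:CR32205 was near the floor, at 0.0966 and 0.687 CPM against 2.66 and 0.815 CPM (log2 fold change 2.11). No hairpin was called. mus308, a DNA polymerase whose transcript is a known endo-siRNA target, had 159.9 and 160.6 CPM in si5UTR and 123 and 146 CPM with V966M (log2 fold change -0.25, edgeR adjusted p 0.612).

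Among 10 miRNA factors edgeR called none with V966M against si5UTR (1 with an unadjusted p under 0.05, none by DESeq2), and the most abundant, Not1 and pAbp, had log2 fold changes of -0.06 and 0.17. The partners of AGO2 in the nucleus were similar, with Lam (372 and 328 CPM in si5UTR, 415 and 372 CPM with V966M) at 0.17 and LBR at 0.11 among the 8 tested genes of the lamina and envelope, shep at -0.11 and mod(mdg4) at -0.03 among 11 insulator genes, and RpII215, the largest subunit of RNA polymerase II, at -0.13 among 15 genes of NELF and the polymerase. In these 3 lists edgeR and DESeq2 called none, and 1, 0 and 1 genes had an unadjusted p under 0.05. Of 17 tested heat shock and chaperone genes Hsp67Ba was called, and the abundant Hsp83 and Hsc70-4 had log2 fold changes of 0.05 and -0.09. The 78 tested ribosomal protein genes had a median log2 fold change of 0.07 with V966M against si5UTR, with 7 at an unadjusted p under 0.05 and 1 called by DESeq2 but none by edgeR.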

How the data were processed

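The authors trimmed 50 bp single reads with cutadapt 1.10, aligned them to dm6 with HISAT2 2.0.4 and counted them, by strand, over FlyBase gene bodies with featureCounts 1.5.0-p3, and they deposited whole-number counts per gene for 23 libraries of 3 experiments. By default featureCounts leaves out reads that overlap more than 1 gene. Counts were analysed with edgeR 4.0.16 (R 4.3.3; filterByExpr, TMM, quasi-likelihood test, treatment as the only term, each experiment fitted on its own, Benjamini-Hochberg over all genes tested). Genes were called at an adjusted p under 0.1, as the study did with DESeq2. SE is the log2 fold change divided by the square root of F. A count of 0 was taken to allow 3 reads, for counting error only.

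The genes named are AGO2, every called gene, the 3 nearest the threshold on either side, members of 12 gene lists that were called in experiment 2 or, where none was, the most abundant 2, every siRNA factor, and the 3 AGO2 KD genes with the lowest and the highest fold change at 5 CPM or more without overlap. The tested endo-siRNA hairpins are named as well. Members and lists were chosen with earlier results of these data known. Genes were matched to symbols and dm6 positions by ID (17464 of 17659), and the coding sequence was taken from the RefSeq genome of dm6. Alternatives were DESeq2 1.42.0, other size factors, no filter, a stricter threshold, only the groups compared, a replicate block, a loess correction for gene length and GC content, and leaving out each library. Same-numbered libraries of si5UTR and si5UTR+V966M did not deviate together (r = 0.027 across 8727 genes), so numbers were not treated as pairs. The fit was tested on simulated data.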

Additional observations from a re-analysis of the deposited data

Results flagged for a closer look

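The 14 genes called in si5UTR+V966M against si5UTR+AGO2 are listed because their level differed between the constructs when these were tested directly against each other. The log2 differences (V966M minus wildtype) were 1.76 for 28SrRNA-Psi:CR41609, 1.04 for Gadd45, 0.94 for asRNA:CR46089, 0.64 for cv-2, 0.61 for Tep4, 0.56 for ImpL2 and 0.50 for Socs36E. They were -1.46 for CG41520, -1.29 for 28SrRNA-Psi:CR40741, -0.61 for Ppn, -0.57 for Pxn, -0.39 for Hml, -0.35 for eIF4EHP and -0.34 for LanA. Of the 7 higher genes, 6 were also called higher in each of AGO2 KD, LaminB KD and Dcr-2 KD, where 7.92%, 16.7% and 1.38% of all genes were, and of the 7 lower ones Pxn, Hml and Ppn were called lower in AGO2 KD (2.32% of all genes), while CG41520 and eIF4EHP were called higher in AGO2 KD and LaminB KD.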

How the results depend on the processing

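The direction of all 23 called genes was kept under every setting that gave a value. It could hardly change, since their levels did not overlap between the groups compared. Calls were lost in 31 of 129 fits per gene with another tool, scaling, filter or design. For V966M against si5UTR, 9 rises and 14 falls became 26 and 87 with DESeq2, 38 and 33 without the filter on low counts, 3 and 6 at an adjusted p under 0.05, and 3 and 1 when only the 2 groups compared were fitted. The length and GC correction left 11 rises and 4 falls. Fits without 1 library leave 1 library in a group, so a call kept in them is no measure of stability. Fits without 1 library gave 16 to 46 rises and 8 to 97 falls, and 35 to 48 where the library left out was mock or wildtype. The replicate block gave 30 rises and 19 falls and kept all 23 calls, although the numbers do not pair the libraries. For V966M against wildtype AGO2, 7 rises and 7 falls became 22 and 64 with DESeq2, and 52 and 35 without the filter. Here 4 falls were left at an adjusted p under 0.05 and 3 with the length and GC correction, and fits without 1 library gave 5 to 135 rises and 11 to 169 falls, the most without V966M replicate 3. The median of the genes higher in AGO2 KD, -0.13, was 0.0016 with the length and GC correction and ran from -0.15 to -0.10 without 1 library. That of the genes lower in AGO2 KD, -0.006, was 0.064 and ran from -0.0081 to 0.025. The cause of these differences was not tested. A floor of 3 reads is 0.188 to 0.29 CPM in the 4 libraries compared.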
